A study of Mus musculus with 6 samples.

Results

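The 10 genes described here are Notch1, Notch2 and Notch3 (receptors), Jag1, Jag2 and Dll1 (ligands), Lfng (a receptor-modifying enzyme), Rbpj (the DNA-binding mediator) and Hes1 and Hey1 (target repressors). They were taken by exact gene symbol, and each stood on 1 of the 23282 entries of the count files. RNA came, per the labels, from BMOL, a mouse liver progenitor line, in 6 libraries: 3 of cells given a vector control (control libraries below) and 3 of cells given TXNIP-expressing constructs (TXNIP libraries below). TXNIP, thioredoxin-interacting protein, is an alpha-arrestin that binds thioredoxin. No further allele, agent or time is named in the labels, and nothing there describes the construct, its promoter or a choice of clones. Separate cultures for the 3 libraries of a group are not stated either, so p-values measure only the spread between these libraries, which may be technical.

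Notch signalling runs between touching cells. A Jagged or Delta ligand on 1 cell pulls on a Notch receptor of its neighbour, an ADAM protease and then gamma-secretase cut the receptor, and the freed intracellular domain enters the nucleus, where it joins RBPJ and Mastermind to switch on targets such as the Hes and Hey repressor genes. Without that domain RBPJ sits on the same sites with co-repressors. In the liver the pathway is known for directing progenitors to the bile duct lineage, with JAG1 and NOTCH2 as the ligand and receptor whose mutation causes Alagille syndrome, and in the myeloid lineage Notch signals act on monocyte and macrophage fates.

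RBPJ recognises a core of 6 bases, TGGGAA, and the sequences below show where that core stands upstream of annotated starts of members. In RefSeq windows of the 250 bases before an annotated start (GRCm38.p6, the assembly of the mm10 build that the submitters' processing notes name), 8 of the 10 members matched, all but Hes1 and Hey1, with 10 windows. Both strands were searched, as TGGGAA or TTCCCA, and no other motif was searched. The core stood in 3 of the 10 windows, those of Rbpj and Lfng, against 21.6% of all 32851 windows in the table. Of these 3, 2 are overlapping windows of Rbpj that share a core. Counted by gene, the core stood for 2 of the 8 matched members (25%), against 24.1% of 27025 genes, a similar share. The Rbpj stretch is chr5:53590096-53590213 and the Lfng stretch chr5:140607091-140607319, both on the plus strand and both ending before the next annotated exon. The Rbpj stretch lies inside the annotated gene (53466152 to 53657362), before an internal RefSeq start. It is therefore not the sequence upstream of the whole gene. Capitals mark the core, which begins 149 bases before the RefSeq start in the Rbpj stretch, and 135 and 108 bases before it in Lfng. Rbpj has a further core 65 bases before the same start, past the end of the printed stretch, which also lies in its other, overlapping window.
Rbpj: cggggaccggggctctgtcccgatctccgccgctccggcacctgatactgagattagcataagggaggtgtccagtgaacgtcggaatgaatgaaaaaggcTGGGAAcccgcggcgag
Lfng: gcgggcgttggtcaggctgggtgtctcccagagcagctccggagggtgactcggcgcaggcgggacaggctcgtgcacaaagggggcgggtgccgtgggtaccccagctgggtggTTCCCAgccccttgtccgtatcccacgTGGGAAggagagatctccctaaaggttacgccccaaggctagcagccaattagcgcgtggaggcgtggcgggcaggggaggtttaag
A match is a description of the letters, not a bound site, and no binding was measured. In the counts given below Rbpj rose and Lfng did not pass the test.

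Library totals ranged from 8725624 to 15119775 reads. Levels are given as CPM (reads per 1e+06 reads of the library, scaled with edgeR's TMM factors). Txnip, the gene the constructs are labelled to express, stood at 38.3, 9.63 and 10.8 CPM across the controls and at 217, 299 and 290 CPM across the TXNIP libraries, so the groups did not overlap (log2 fold change 3.82 ± 0.46, SE; edgeR adjusted p = 2.76e-05; 4.71 without control replicate 1). Its last exon is overlapped by the antisense gene Gm15441. As the construct is not described, Txnip reads from it and from the cells' own gene cannot be told apart. The labelled progenitor identity was checked against its markers: they were present in the controls, and in the TXNIP libraries 9 of 10 tested ductular and progenitor markers fell, among them Krt7, Krt8, Krt18 and Krt19 (Krt19 from 182 ± 60.4 CPM to 2 reads in all; SD, n = 3), while Spp1, which macrophages also express, rose. Epcam, with 52 reads in the controls and none elsewhere, was not tested. All 12 tested leukocyte and macrophage markers rose, of 16 listed, and their summed level went from 72.4 to 92.5 CPM in the controls to 7108 to 7631 CPM. The other 4, Clec4f, Marco, Timd4 and Cd163, which mark tissue-resident macrophages, had no read in any library. Lymphocyte markers were near 0 (6 of 8 without a read anywhere). Among all tested genes, 30.6% rose and 33.9% fell. Of the tested leukocyte markers, all but Csf1r, Cd14 and Spi1 passed the filter on low counts only through the TXNIP libraries. The ductular markers that fell passed it only through the controls. The counts of markers that rose or fell therefore support nothing by themselves. Every difference below moved together with these cell-type markers, and their part in the Notch results was not tested. Whether the TXNIP libraries hold the labelled line was not tested either, so each fold change compares libraries as they are labelled. In bulk RNA, fewer cells of a type and less RNA per cell cannot be told apart.

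Of the 10 Notch genes, 4 rose, 4 fell, 1 did not pass and 1, Dll1, had too few reads to test. Notch2, Notch3, Jag2 and Rbpj were higher in the TXNIP libraries, and Notch1, Jag1, Hes1 and Hey1 were lower, in edgeR's quasi-likelihood test at an adjusted p of 0.05 over all 12088 genes. The share of called members among those tested was 88.9%, beside 64.5% of all tested genes (30.6% higher and 33.9% lower). Of the 9, 5 passed the filter on low counts only through the group in which they were high (Notch1, Hes1 and Hey1 through the controls, Notch3 and Jag2 through the TXNIP libraries), so that share supports nothing by itself. The median log2 fold change of the 9 tested members was 0.06, against -0.04 over all tested genes. The groups did not overlap in 8 of the 9 tested members, 4 in each direction, where 70.4% of all tested genes showed the same (33.6% higher and 36.8% lower).

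**Figure D1:**
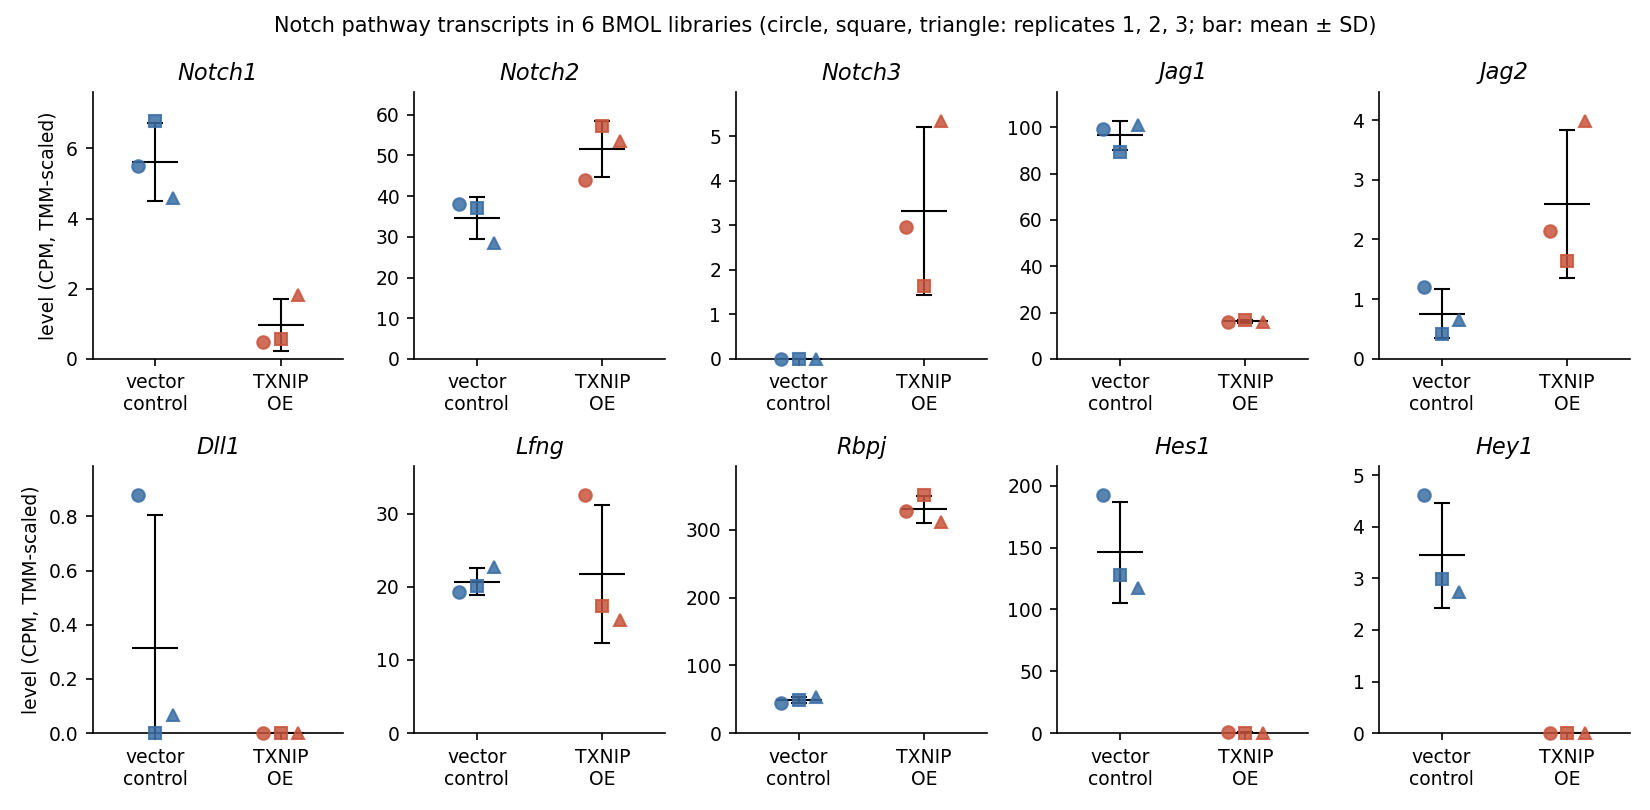
Level of each of the 10 genes in CPM (y axis, linear and starting at 0, a scale per panel) in the vector control and TXNIP overexpression (TXNIP OE) libraries; points are libraries, with a shape per replicate number, and bars are the mean ± SD (n = 3). Hes1 fell from between 118 and 193 CPM to at most 0.594 CPM, Rbpj rose from about 49 to 330 CPM, and Lfng overlapped between the groups; the lower error bar of Dll1 is cut at 0.

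The 3 receptors each changed, in different directions. Notch2 (chromosome 3, 98013527 to 98150361, GRCm38, protein-coding), the receptor tied to bile duct formation, stood at 38.2, 37.0 and 28.6 CPM across the controls, and the TXNIP libraries read 43.9, 57.4 and 53.6 CPM. Every library of the latter group stood above every control, although the nearest libraries lay close together. Its mean rose 1.49-fold, with a log2 fold change of 0.58 ± 0.17 (SE; edgeR adjusted p = 0.0104). The call was lost without control replicate 3, its lowest library (log2 fold change 0.45, edgeR adjusted p = 0.0598).

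Notch1 (chromosome 2, 26457903 to 26516663), the receptor best known from T cell and endothelial biology, gave 5.50, 6.79 and 4.57 CPM across the controls, against 0.475, 0.580 and 1.81 CPM with the constructs. The groups were well apart, and replicate 3 was the highest of the TXNIP libraries. The mean was 5.88-fold lower, with a log2 fold change of -2.51 ± 0.55 (SE; edgeR adjusted p = 0.00148). Without that replicate the log2 fold change was -3.37. The last exon of Notch1 is overlapped by 2 transcripts annotated on the opposite strand, 0610009E02Rik and Gm13568, and since the use of strand in counting is not given, reads of such a partner cannot be told apart from those of Notch1.

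Notch3 (chromosome 17, 32120820 to 32166852), a receptor best known from the mural cells of vessels, had no read in any control. The TXNIP libraries had 25, 17 and 59 reads, or 2.97, 1.64 and 5.35 CPM, so it was present in all 3 at a low level. A count of 0 over the controls allows up to 0.0773 CPM (3 reads over the group), which makes Notch3 at least 43.9-fold higher (edgeR adjusted p = 1.34e-04). This bound, like every interval here, covers counting error only. Stellate and fibroblast markers were also low in those libraries, as Notch3 itself was. Their part in the Notch3 reads was not tested. Of 10 stellate and fibroblast markers 9 were not tested, the summed level of the list lay between 0.660 and 1.80 CPM with the vector and between 1.26 and 3.36 CPM with the constructs, Pdgfrb had 2 reads in all, and Lrat, Col1a2, Lum and Reln had none. Acta2 alone was tested, with 0.497 ± 0.351 and 2.06 ± 1.13 CPM (SD, n = 3; edgeR adjusted p = 0.0275). Its groups overlapped, with a highest control of 0.901 CPM and a lowest TXNIP library of 0.774 CPM. The Acta2 call was lost without control replicate 1 (0.0759), control replicate 3 (0.105) or TXNIP replicate 1 (0.0877). It was also lost with no filter (0.0541) or the replicate block (0.0929). The last exon of Notch3 overlaps the antisense gene Gm17276, with the same limit on strand.

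The ligands moved in both directions. Jag1 (chromosome 2, 137081456 to 137116644), the Jagged ligand that presents Notch signals in the bile duct, measured 99.1, 89.1 and 101 CPM with the vector, against 16.0, 16.9 and 15.9 CPM with the constructs. Its replicates lay close together within each group and far apart between them. The mean was 5.92-fold lower, with a log2 fold change of -2.57 ± 0.14 (SE; edgeR adjusted p = 1.27e-08). Jag1 reads did not vanish: 485 remained over the 3 libraries.

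Jag2 (chromosome 12, 112907819 to 112929776), the other Jagged ligand, was low throughout, at 1.21, 0.416 and 0.653 CPM with the vector and 2.14, 1.64 and 3.99 CPM with the constructs. The groups did not overlap, but these levels rest on 27 and 79 reads. The log2 fold change was 1.82 ± 0.62 (SE; edgeR adjusted p = 0.0209). That call was lost without control replicate 2 (0.0886), control replicate 3 (0.0726) or TXNIP replicate 3 (0.133). Dll1 (chromosome 17, 15367354 to 15376872), a Delta-like ligand, had 8, 0 and 1 reads with the vector and none with the constructs, and a difference was not detectable at this depth.

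Of 9 further receptors and ligands with an entry in the files, only Dlk2 and Egfl7, both non-canonical Notch ligands, had enough reads to test. Both fell, where 33.9% of all tested genes did. Dlk2 went from 6.87 ± 1.22 to 0.363 ± 0.189 CPM and Egfl7 from 7.45 ± 0.789 to 1.11 ± 0.348 CPM (SD, n = 3; edgeR adjusted p = 1.78e-05 and 1.01e-04). Notch4, with 14 and 10 reads per group, and Dll4, with 5 reads, all in control replicate 2, were too low to test. Egfl7 is also an endothelial gene, and of 10 endothelial markers Cdh5, Tie1, Emcn, Stab2 and Lyve1 had no read in any library. Kdr and Vwf had no control read but 9, 9 and 23 reads and 7, 23 and 26 reads in the TXNIP libraries, too few to test. Only Flt1 of that list was tested, and it fell from 34.0 ± 2.66 to 17.8 ± 4.48 CPM (edgeR adjusted p = 0.00173).

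Among the enzymes that add sugars to the receptor, Lfng did not pass the test and its relative Mfng was read with the constructs alone. Lfng (chromosome 5, 140607320 to 140615545), lunatic fringe, extends O-fucose on Notch and shifts its preference between Delta and Jagged ligands. It stood at 19.2, 20.1 and 22.7 CPM across the controls, and the TXNIP libraries read 32.6, 17.3 and 15.4 CPM. Replicate 1 of the latter group stood above all controls and the other two below all of them. The log2 fold change of Lfng was 0.06 ± 0.27 (SE; edgeR adjusted p = 0.845), and without that replicate it was -0.33 (adjusted p = 0.183).

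Mfng, manic fringe, an enzyme of the same activity, had no control read, and reached 18.5, 16.7 and 21.2 CPM with the constructs. It was at least 245-fold higher (edgeR adjusted p = 1.18e-07). Rfng, radical fringe, did not pass, with 9.89 ± 0.671 and 12.8 ± 2.97 CPM (SD, n = 3; edgeR adjusted p = 0.212). Pofut1, which adds the O-fucose that fringes extend, rose from 16.2 ± 2.79 to 37.5 ± 4.32 CPM (adjusted p = 1.38e-04), and Poglut1, which adds O-glucose, from 6.52 ± 5.07 to 43.5 ± 1.98 CPM (adjusted p = 1.54e-04). The log2 fold change of Poglut1 moved from 2.80 to 3.58 without control replicate 1, its highest control. Furin, the protease that matures the receptor, did not pass (115 ± 29.2 and 92.2 ± 3.68 CPM; edgeR adjusted p = 0.121). In this list of 5, then, 3 rose, none fell and 2 did not pass (30.6% of all tested genes rose and 33.9% fell).

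The shares of reads within each family show how its make-up differed. Shares are of reads and not of molecules, since genes can differ in how well their 3' ends are captured. Notch2 held 86.0% ± 1.46 of the reads of the 3 receptors with the vector and 92.4% ± 4.04 with the constructs (SD, n = 3), Notch1 fell from 14.0% ± 1.46 to 1.65% ± 1.15, and Notch3 went from 0 to 5.95% ± 3.04. Every TXNIP library had a higher Notch2 share than every control (exact two-sided permutation p = 0.1, the smallest that 3 against 3 allow). Jag1 held 98.9% ± 0.863 of the reads of the 3 ligands and then 86.4% ± 5.83, with Jag2 taking the rest (exact two-sided permutation p = 0.1). In the fringe family, Mfng went from 0 to between 29.4% and 45.1% of the reads, and Lfng from between 65.5% and 71.0% to between 32.8% and 51.7%.

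**Figure D2:**
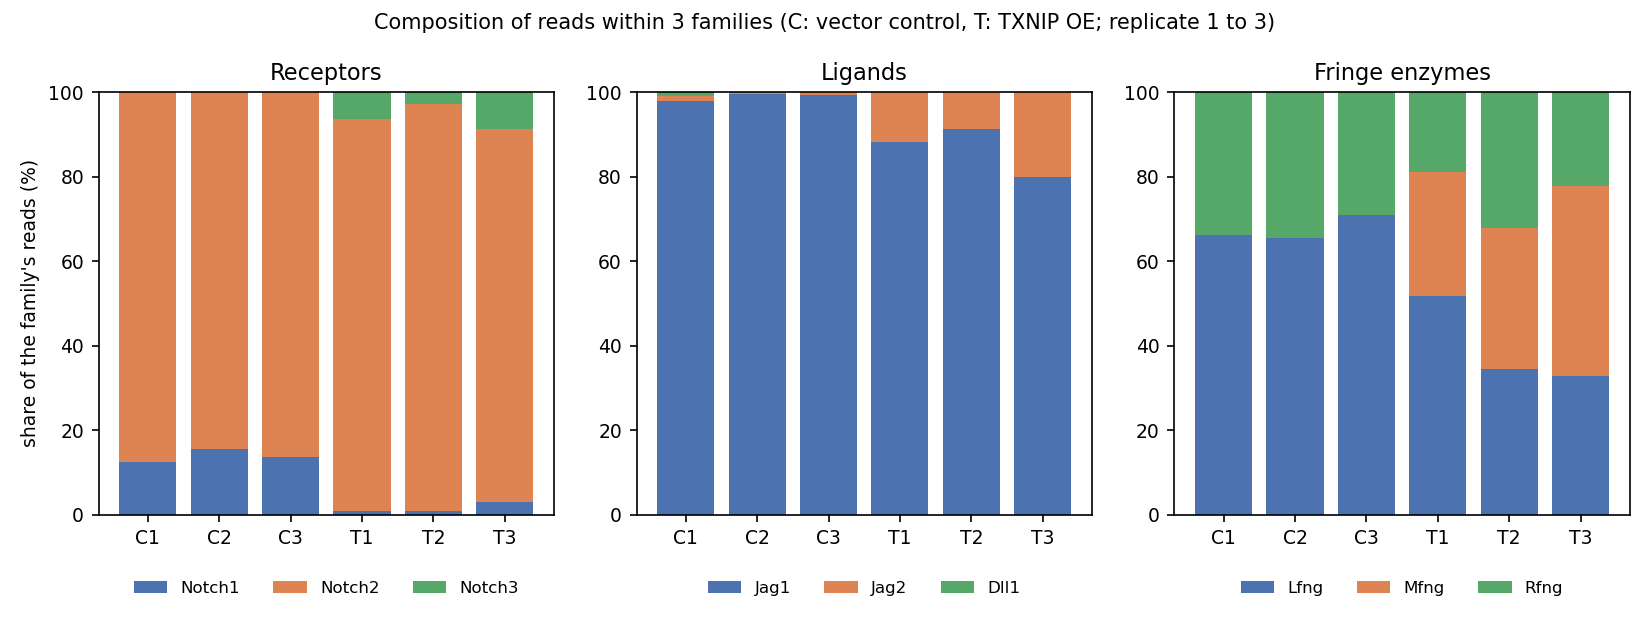
Share of reads (y axis, percent) held by each gene within the receptors, the ligands and the fringe enzymes in each library (x axis; C1 to C3, vector control replicates; T1 to T3, TXNIP overexpression replicates). Notch3 and Mfng appear in T1 to T3 alone, and the Jag1 share stands at 97.9% or more in C1 to C3 and between 79.9% and 91.1% in T1 to T3.

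The proteases that release the intracellular domain went in both directions. Of 9 ADAM and gamma-secretase genes, 5 rose, among them Adam17, Psen2, Aph1a and Aph1c, while Aph1b fell (30.6% of all tested genes rose and 33.9% fell), and Adam10, Ncstn and Psenen did not pass (Psenen passed without control replicate 1, log2 fold change -0.45, edgeR adjusted p = 0.0288). Adam17, a sheddase of Notch and of many other surface proteins, TNF among them, rose 5.30-fold, from 93.5 ± 12.3 to 496 ± 54.9 CPM (SD, n = 3; edgeR adjusted p = 1.95e-08). Psen2, which encodes a catalytic subunit of gamma-secretase, rose 5.20-fold, from 9.77 ± 0.257 to 50.8 ± 13.4 CPM (edgeR adjusted p = 1.03e-06). Adam10, the ADAM protease of ligand-driven cleavage, stood at 77.2 ± 16.0 and 86.3 ± 10.8 CPM (adjusted p = 0.401), and passed without replicate 1 in both groups (log2 fold change 0.43, edgeR adjusted p = 0.00134). The call of Aph1b (3.87 ± 2.07 against 8.18 ± 1.32 CPM, adjusted p = 0.0339) was lost without control replicate 1 (0.0795), control replicate 3 (0.0691), or TXNIP replicate 2 (0.115) or 3 (0.0913). Aph1b and Aph1c are close paralogs, and how reads that map to both were counted is not stated.

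Genes of ubiquitin transfer and endocytosis, which activate ligands or remove receptors, went both ways. Of 14 tested, 6 rose, 6 fell and 2, Itch and Dtx2, did not pass (30.6% of all tested genes rose and 33.9% fell). Neurl1b, a ubiquitin ligase that acts on Jag1 and Delta ligands, fell 17.2-fold, from 1259, 1041 and 1135 to 62.7, 75.3 and 61.0 CPM (edgeR adjusted p = 2.62e-10). Its homologue Neurl1a stood between 5.68 and 15.2 CPM with the vector and had no TXNIP library read, at least 82.3-fold lower (chosen after its values were seen). The pair of Numb genes, which encode adaptors that draw Notch into endocytosis, moved in opposite directions. Numbl fell from 21.2 ± 4.03 to 2.08 ± 0.440 CPM (SD, n = 3; edgeR adjusted p = 7.08e-07), whereas Numb, named after its values were seen, rose from 14.1 ± 1.24 to 54.8 ± 15.6 CPM (adjusted p = 7.29e-06). Dtx3l, of the Deltex family of ubiquitin ligases and also an interferon-responsive gene, rose 4.49-fold (adjusted p = 1.53e-06). The calls of Mib2, Dtx3 and 4 genes of other lists were lost when single libraries were left out, and some under other settings too, as given in the closing section. Itch gained a call in some alternatives, also given there.

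Rbpj (chromosome 5, 53466152 to 53657362), of which a stretch before an internal start is printed above, encodes the DNA-binding protein through which all the Notch receptors act. It measured 45.1, 48.9 and 52.6 CPM with the vector, against 327, 351 and 311 CPM with the constructs. The 2 groups lay far apart, with little spread in either. The mean rose 6.75-fold, with a log2 fold change of 2.75 ± 0.13 (SE; edgeR adjusted p = 2.24e-09). Processed pseudogenes of Rbpj are annotated (Rbpj-ps1 and Rbpj-ps3), and how reads that also map to them were treated is not stated by any source used here.

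Genes for nuclear partners of RBPJ changed in both directions, as did all tested genes (64.5% called, 30.6% higher and 33.9% lower). Of 8 co-activator genes, Snw1 and Crebbp rose, Maml1, Maml3 and Kat2b fell, and 3 (Maml2, Ep300 and Kat2a) did not pass. Kat2b, a histone acetyltransferase gene, fell from 78.5 ± 10.3 to 30.4 ± 3.75 CPM, and Maml3, a Mastermind gene, from 15.0 ± 2.60 to 6.81 ± 2.01 CPM (SD, n = 3; edgeR adjusted p = 1.00e-05 and 0.00345). Snw1 rose 1.35-fold, from 184 ± 8.39 to 249 ± 23.6 CPM (adjusted p = 0.00714). Of 14 tested co-repressor genes, 4 rose (Spen, Kdm5a, Ctbp2 and Tle1), 4 fell (Ctbp1, Tle4, Fhl1 and Rita1) and 6 did not pass, among them Ncor1, Hdac1 and Hdac2. Tle1, a Groucho-type co-repressor gene that also works with HES proteins, rose 2.05-fold and Ctbp2 rose 1.65-fold (edgeR adjusted p = 1.01e-04 and 1.95e-04). Fhl1, of which a splice form binds RBPJ, stood between 17.6 and 24.9 CPM with the vector and had no TXNIP library read, which makes it at least 213-fold lower; gene counts do not separate its splice forms.

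Both target repressors fell, to few reads or none. Hes1 (chromosome 16, 30064384 to 30067796), a basic helix-loop-helix repressor gene that RBPJ and the Notch intracellular domain switch on in many tissues, stood at 193, 128 and 118 CPM across the controls, from 1752, 1849 and 1799 reads. The TXNIP libraries had 5, 0 and 3 reads, or 0.594, 0 and 0.272 CPM. Control replicate 1 was the highest, and no library of either group came near the other group. The mean was 506-fold lower, with a log2 fold change of -9.02 ± 0.42 (SE; edgeR adjusted p = 7.62e-09). With 8 reads left, the size depends on where they fell: the log2 fold change was -9.91 without TXNIP replicate 1 and -8.41 without TXNIP replicate 2.

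Hey1 (chromosome 3, 8663359 to 8667256), a related repressor gene, was low in the controls, with 42, 43 and 42 reads (4.62, 2.98 and 2.74 CPM), and none was left with the constructs. It was at least 32.5-fold lower (edgeR adjusted p = 7.81e-05). A count of 0 over the 3 libraries allows up to 0.101 CPM.

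All 7 tested genes of the list of other Hes, Hey, Id and related genes fell, out of 13 listed, where 33.9% of all tested genes fell. Of the untested ones, 4 (Hes2, Hes3, Hes5 and Heyl) had no read in any library. Hes6, which encodes a HES protein that counteracts HES1, fell 5.72-fold, from 59.5 ± 2.77 to 10.4 ± 1.38 CPM (SD, n = 3; edgeR adjusted p = 8.65e-08). Nrarp, a feedback inhibitor gene that Notch itself switches on, had 145, 136 and 197 reads with the vector and none with the constructs, at least 122-fold lower (edgeR adjusted p = 1.18e-06; named after its values were seen). Id2 and Id3, which encode inhibitors of helix-loop-helix factors and answer chiefly to BMP signals, fell 117-fold and 29.5-fold (adjusted p = 2.69e-09 and 2.24e-09). Id1, Bhlhe40 and Bhlhe41 fell as well, and the Bhlhe genes are better known from hypoxia and the circadian clock than from Notch. The median log2 fold change of the 7 was -3.60, against -0.04 over all tested genes.

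Over all 59 tested pathway genes that are not among the 10, 20 rose, 23 fell and 16 did not pass, so that 72.9% were called beside 64.5% of all tested genes. Their median log2 fold change was -0.08. Calls in the list fell on both sides of 0. Mfng had no control read, and Neurl1a, Fhl1 and Nrarp had no TXNIP library read. Such genes passed the filter only through the group in which they were high, so the share of 72.9% supports nothing by itself.

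**Figure D3:**
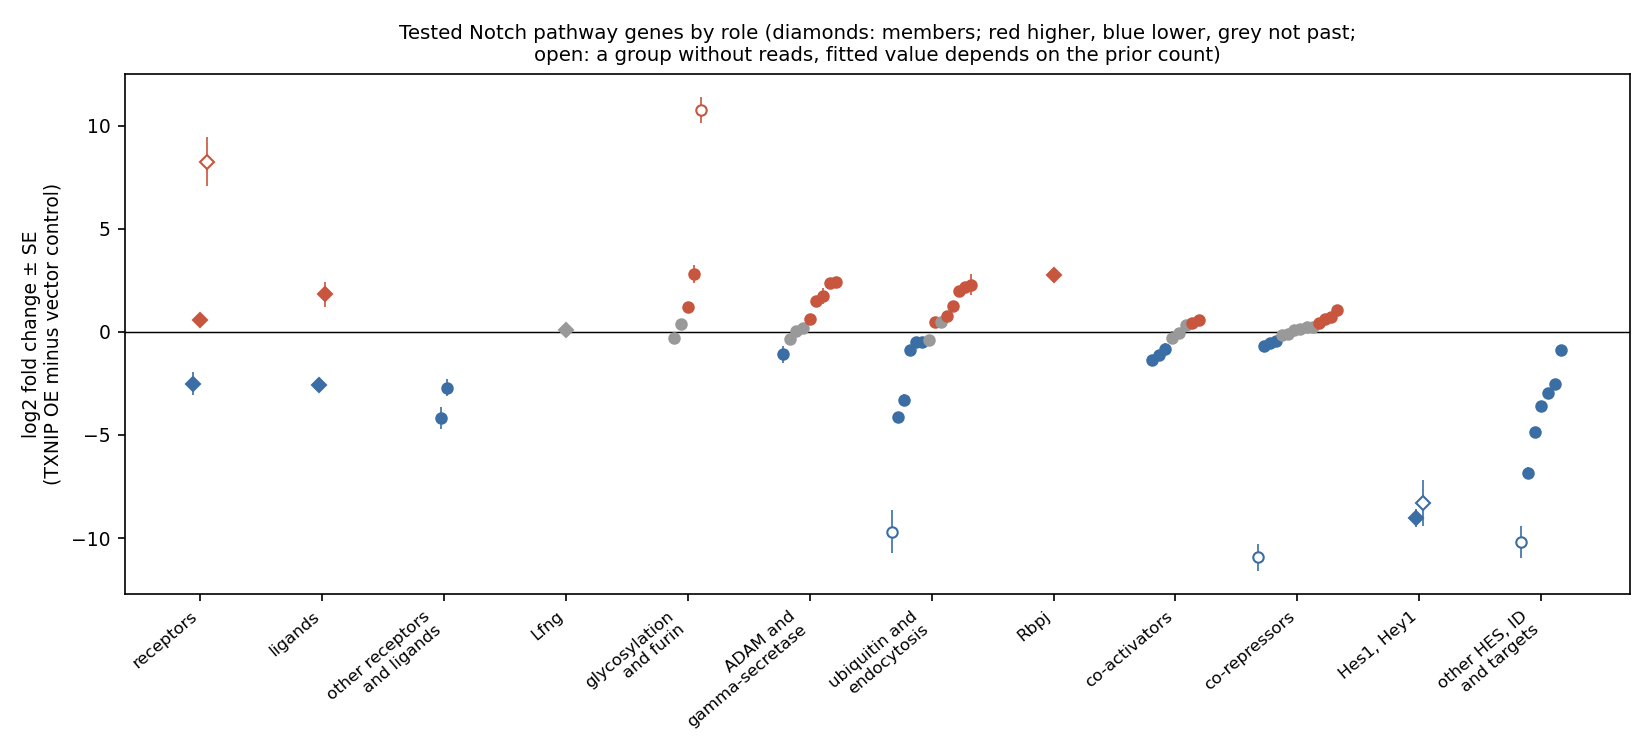
Log2 fold change with its SE (y axis, TXNIP overexpression minus vector control) of the tested Notch pathway genes, arranged by role (x axis); diamonds are the 9 tested members, circles the 59 other genes, red rose, blue fell, grey did not pass, and open symbols had a group without reads, where the fitted value is no measure of size. Receptors, ligands and ubiquitin genes spread to both sides. Hes1, Hey1 and the tested genes of the last list (other Hes, Id and related genes, not all of them known as Notch targets) lie below 0.

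Rbpj was 6.75-fold higher where Hes1 had 8 reads and Hey1 and Nrarp had none. The 3 libraries with high Rbpj are those in which all 12 tested leukocyte markers were high and the keratins near 0; the part of these markers was not tested. Of the leukocyte markers, Itgam and Adgre1 had no control read and Ptprc had 6, all in replicate 1, whereas Csf1r and Cd14 were read in every control, with 1072 and 2051 reads over the 3 (Cd14 named after its values were seen). The summed level of 10 hepatocyte markers lay between 39.9 and 101 CPM with the vector and between 0.0967 and 3.27 CPM with the constructs. Of these, 5 were tested. Ttr, Hnf4a, Fgb and Serpina1a fell, as did 33.9% of all tested genes, and Alb did not pass (edgeR adjusted p = 0.362). Hnf4a, Fgb and Serpina1a passed the filter only through the controls. The call of Ttr was lost without control replicate 1 (adjusted p = 0.194) or TXNIP replicate 1 (0.117) or 2 (0.0960).

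**Figure D4:**
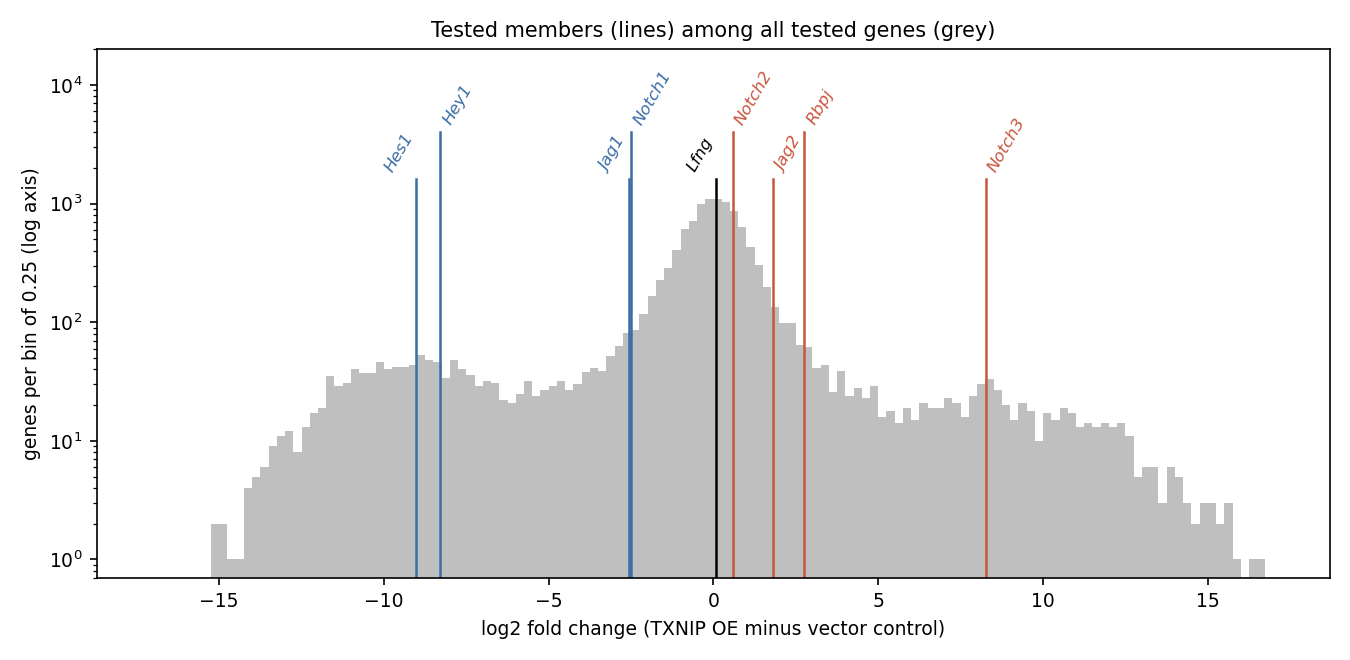
Histogram of the log2 fold changes of all 12088 tested genes (grey; y axis, genes per bin, log scale), with the 9 tested members as lines (blue fell, red rose, black did not pass). Hes1 and Hey1 lie in the lower shoulder near -9.02 and -8.29, Notch3 in the upper one near 8.26, and Lfng at 0.06 near the middle; the values of Hey1 and Notch3 are fitted against groups without reads.

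The genes most like a member across the 6 libraries were looked up for Notch3, Jag1 and Rbpj, by Pearson's r of log2(CPM + 1) among genes with a mean of at least 5 CPM. Closest to Rbpj were Sh3bp2, Gfod1 and Tiam1 (r of 0.9996 or more). Zbtb10, Tjp1 and Agrn came closest to Jag1 (r of 0.9997 or more), and Pnp, Nek9 and Mrpl46 to Notch3 (r of 0.9911 or more). The measure compares shape and not size, since Tjp1 was at 0 in every TXNIP library, where Jag1 kept 485 reads in all. With only 2 groups, 1683 genes had an r over 0.95 with Rbpj, 2003 with Jag1 and 243 with Notch3, and all share the same libraries.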

How the data were processed

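QuantSeq 3' libraries were made from BMOL total RNA, per the labels' protocols. Each deposited file gives whole-number read counts by gene symbol for 1 library. Bowtie2, bedtools and mm10 appear in the submitters' processing notes; no source used here states versions, annotation, use of strand or handling of duplicates. Entries that share a symbol were kept apart; Rn45s held 7.85% to 9.63% of reads and was kept.

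Counts were filtered with edgeR's filterByExpr (12088 genes left), scaled with TMM factors and tested with edgeR 4.0.16 (R 4.3.3), two-sided quasi-likelihood test, robust dispersions, group as the only term, Benjamini-Hochberg adjustment over all genes tested, threshold 0.05. The SE is the log2 fold change divided by the root of F. Fold bounds set 3 reads over a group without reads. The scripts were tested on simulated counts with fewer and smaller changes than seen here, so larger fitted sizes were not checked. Gene positions are from GENCODE M21 (GRCm38). Also run were 3 other scalings (upper-quartile, RLE, none beyond library size), 2 other filters, DESeq2 1.42.0, limma-voom (3.58.1), dispersions without robust estimation, a replicate block, an adjusted p of 0.01, removal of Rn45s and each library left out. Leaving out replicate 1 of both groups was added after seeing the data.

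The members and lists were chosen with earlier results of these data known. Genes named were the 10 members, Txnip, the 3 genes of each pathway list with the smallest adjusted p, those needed to account for a count of 5 or fewer, and the first 5 markers of each cell-type list; exceptions are marked. Some genes of the pathway lists were counted and are not reported here by name.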

Additional observations from a re-analysis of the deposited data

How the results depend on the processing

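Notch1, Notch3, Jag1, Rbpj, Hes1 and Hey1 kept their direction and their call wherever they were tested among the 18 alternatives, with log2 fold changes from -3.37 to -2.20, 6.26 to 8.62, -2.64 to -2.53, 2.68 to 2.81, -9.91 to -8.41 and -8.37 to -6.03. A filter of 5 CPM in 3 libraries removed Notch1, Notch3, Jag2 and Hey1 from the test and left 2 members higher and 2 lower. At an adjusted p of 0.01, 2 members were higher, with Notch2 and Jag2 lost. Leaving out 1 library gave 2 to 4 members higher, 4 lower, 16 to 20 other pathway genes higher and 21 to 23 lower; the 2 came without control replicate 3. The Notch2 share of receptor reads was 6.36 points higher, with 4.42 to 8.45 when a library was left out, and the Jag1 share of ligand reads 12.5 points lower (-14.8 to -9.23). Lfng passed under none of the 18 and ranged from -0.33 to 0.28 when a library was left out; it had the opposite sign with library size alone (-0.0085), limma-voom (-0.058), the replicate block (-0.0097), without TXNIP replicate 1 (-0.33) and without replicate 1 in both groups (-0.39); the cause was not tested. Calls of Aph1b, Mib2, Dtx3, Crebbp, Spen and Rita1 were each lost without at least 2 single libraries (edgeR adjusted p up to 0.159). Rita1 lost its call whichever library was left out, and with upper-quartile factors, no filter or the replicate block. Mib2 also lost its call with library size alone, no filter or the replicate block, and Spen with library size alone or the replicate block. Some genes that did not pass gained a call (edgeR adjusted p in brackets). Itch did so with upper-quartile factors (0.0486) and without control replicate 1 (0.0402). Furin did without control replicate 2 (0.0300) and Ep300 without TXNIP replicate 2 (0.0493). Hdac2 did without TXNIP replicate 1 (0.0347) and without replicate 1 in both groups (5.57e-04). Under the replicate block 4 members were higher, 4 lower, 18 other pathway genes higher and 22 lower, and no member's call changed. Deviations of same-numbered libraries correlated at 0.160, 0.0774 and 0.0883 over 8425 genes. Replicate 1 of either group correlated at -0.122 to -0.0999 with the other numbers of the other group. Control replicate 2 correlated slightly better with TXNIP replicate 3 (0.0859) than with its own number. The numbers were not taken to pair the samples. Without replicate 1 in both groups, 4022 of all tested genes were higher and 4469 lower, against 3699 and 4097 with all libraries. Depth limits Dll1 and Notch4, and Jag2 rests on 27 and 79 reads.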
